A study of Homo sapiens with 6 samples.

Results

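The HOXB cluster is the run of homeobox genes HOXB1 to HOXB9 and HOXB13 on human chromosome 17, and it holds HOXB7, which the title of the series ties to the microRNA miR-196b. The 10 genes were taken by their symbols in the platform annotation, and each had 1 probe set, a group of array probes summarised to 1 value. They are 10 of 14884 named genes on the array. The cells were HCT116, a long-established line from a human colorectal carcinoma, spelled so in the culture protocol and HTC116 in the sample titles. In all, 6 arrays fell into 2 groups of 3. Control cells were stably transduced with an empty vector, and the other cells were stably transduced and are labelled as overexpressing miR-196b. Replicates are called biological in the labels, but separate transductions are not stated, and p-values therefore cover only the spread among these 6 samples. The promoter of the vectors and the number of clones are not given in the sources used here. Values are RMA signals on the log2 scale, which order the arrays for 1 gene and do not compare 1 gene with another.

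HOX genes encode transcription factors that bind DNA through a homeodomain and set position along the body axis. Within a cluster the genes are used in the order in which they lie on the chromosome, with HOXB1 at the head end of the body and HOXB13 at the tail end. Several HOXB genes stay on in the epithelium of the adult colon. The miR-196 genes lie inside HOX clusters, and the mature microRNA is known to lower HOX messenger RNAs, above all that of HOXB8. A microRNA finds its targets mainly through its seed, a short stretch near its 5′ end.

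The mature sequences are shown because the seed is what miR-196b shares with the microRNA encoded inside the HOXB cluster. They come from RefSeq (GRCh38.p14), run 5′ to 3′, and have the seed, bases 2 to 8, in capitals. The gene of miR-196b-5p was read at chr7:27169528-27169549 on the minus strand. The same miR-196a-5p is encoded at chr12:53991762-53991783 on the plus strand (MIR196A2) and at chr17:48632532-48632553 on the minus strand (MIR196A1, between HOXB9 and HOXB13).
miR-196b-5p: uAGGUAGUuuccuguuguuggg
miR-196a-5p: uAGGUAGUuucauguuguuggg
Both are 22 bases long, share the seed AGGUAGU and differ by 1 substitution, C12A, counted from 1 at the 5′ end with the base of miR-196b-5p first. A messenger RNA that pairs with this seed carries ACUACCU. Transcript sequences were not used here, so sites in the HOXB messenger RNAs were not searched. The hairpin of MIR196A1, at chr17:48632490-48632559 on the minus strand, is shown with its mature microRNA in capitals because a probe set reads this precursor from within the cluster.
MIR196A1 hairpin: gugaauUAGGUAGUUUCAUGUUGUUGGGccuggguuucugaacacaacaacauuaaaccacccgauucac

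The labelled microRNA was checked first. The MIR196B probe set read 8.09, 7.91 and 7.91 in control replicates 1 to 3 and 8.21, 7.93 and 8.01 in the arrays labelled miR-196b (log2 signal), so the groups overlapped (log2 change 0.08, limma adjusted p = 0.819). The MIR196A2 probe set rose from 3.06 ± 0.167 to 10.6 ± 0.149 (log2 signal, SD, n = 3 each; limma adjusted p = 4.53e-07). The MIR196B probe set goes against the label, while the MIR196A2 probe set rose. Which precursor the vector carried is not settled by these values, since probe sequences were not used here and signal shared between the miR-196 probe sets was not tested. Every direction below is that of the arrays labelled miR-196b against control. Array medians lay between 4.34 and 4.37, no array repeated another, and labelled replicates 1 and 3 lay farthest apart on the second principal component (-18.4 and 12.9). Of the epithelial markers, KRT18, KRT19, EPCAM, KRT8, VIL1 and CDX2 were measured, 4 of these 6 were lower, and the sum of their linear signals was 5804 to 5918 in control and 5232 to 5405 in the arrays labelled miR-196b (KRT18 alone: log2 change -0.22, limma adjusted p = 0.405). For the 3 fibroblast markers the sums were 37.1 to 44.9 and 35.4 to 42.6, for the 2 blood cell markers 218 to 239 and 175 to 248, and for the 2 endothelial markers 24.5 to 27.8 and 24.6 to 26.3. No marker was listed at 0, and the part of these markers in the results below was not tested.

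Of the 10 HOXB genes, 7 were lower and 3 higher in the arrays labelled miR-196b, and 0 passed the test at an adjusted p of 0.05 in limma, where 0.0559% of all 16098 named probe sets passed, and 0.0311% passed and were lower. At an unadjusted p under 0.05, HOXB4, HOXB7 and HOXB8 passed (3 of 10), all lower, against 9.87% of all named probe sets in either direction and 4.14% lower. The groups did not overlap for HOXB4, HOXB6, HOXB7 and HOXB8 (4 of 10), again all lower. Over all named probe sets this share was 17.2% in either direction and 7.18% lower. The share lower by sign was 48% over all named probe sets. The median log2 change was -0.20 over the HOXB genes and 0.0069 over all named probe sets. HOXB7 is named in the title of the series, and HOXB8 and HOXB7 are reported miR-196 targets, so their direction is not independent evidence. HOXB5 lay so close to 0 that its sign turned with a repeated quantile normalization (-0.01).

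**Figure D1:**
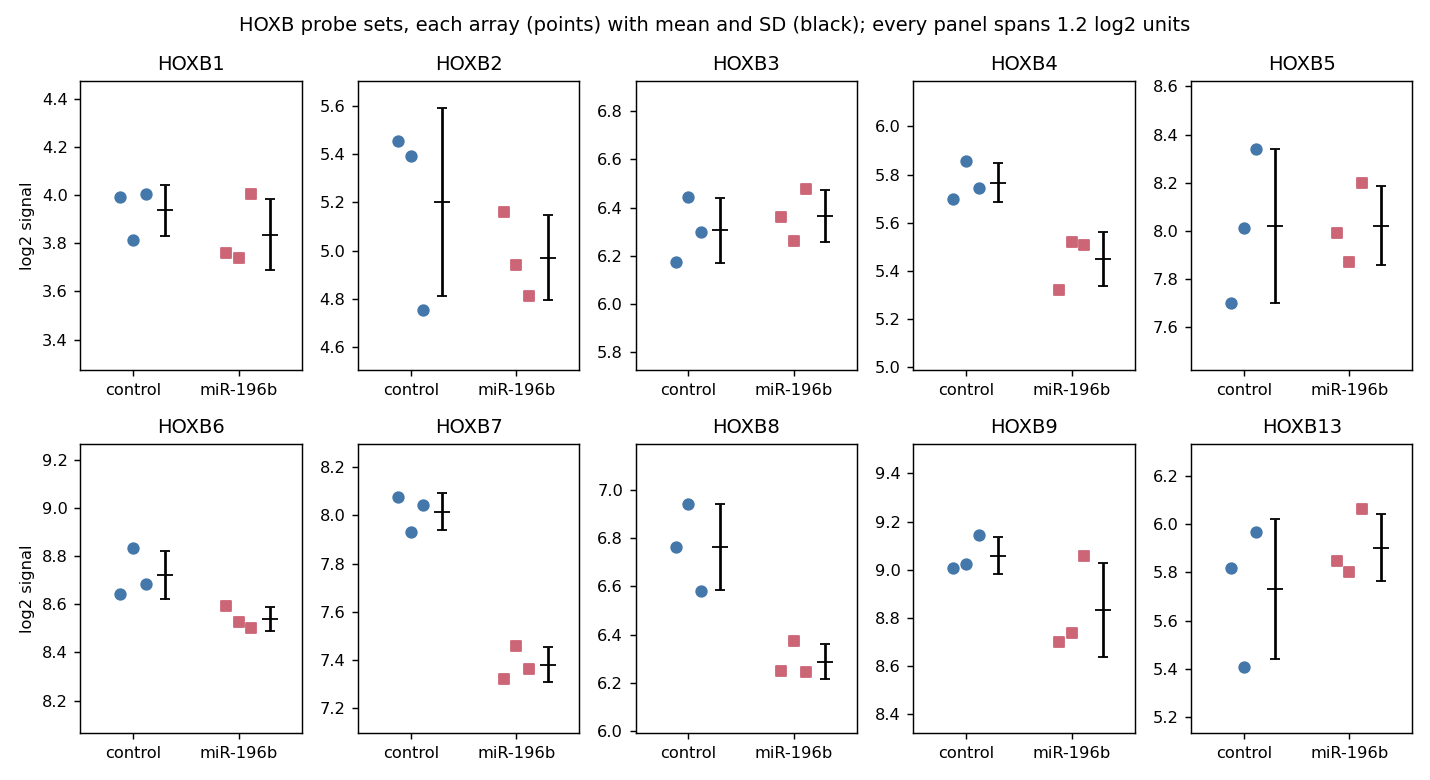
Log2 signal of each HOXB probe set in the 3 control arrays (blue circles) and the 3 arrays labelled miR-196b (red squares), in the order of the cluster, with the group mean and SD in black. Every panel spans the same height, so distances compare between panels while levels do not. The groups stand apart for HOXB4, HOXB6, HOXB7 and HOXB8 and overlap for the other 6 genes.

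HOXB7, a homeodomain factor studied for its part in tumour cell growth and migration, read 8.07, 7.93 and 8.04 in control replicates 1 to 3. It read 7.32, 7.46 and 7.36 in the arrays labelled miR-196b (log2 signal). All 3 labelled arrays lay below all 3 controls, and the gap of 0.47 between the groups was wider than the range within either group (0.14 each). The difference of the means, -0.64 (SE 0.08, 95% interval -0.82 to -0.45), corresponds to 1.55-fold lower signal. This ranked 12th of 16098 by p but did not pass (limma adjusted p = 0.0974). An exact two-sided permutation test over the arrays gave p = 0.1, the smallest that 3 against 3 arrays can give. It did pass when the dimmest 40% of named probe sets were left out (adjusted p = 0.0164 in limma, where 0.228% of the probe sets tested passed) and with a trended, robust variance prior (adjusted p = 0.00146, where 0.565% passed). With any 1 array left out it did not pass (adjusted p = 0.214 to 0.486).

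HOXB8, a factor of myeloid progenitor self-renewal and the best known miR-196 target, read 6.76, 6.94 and 6.58 in control. In the arrays labelled miR-196b it read 6.25, 6.37 and 6.24 (log2 signal). The groups did not overlap, with a gap of 0.21, and the control arrays varied more (SD 0.179) than the labelled ones (SD 0.0725). The means differed by -0.47 (SE 0.11, 95% interval -0.72 to -0.23), and limma gave an adjusted p = 0.331. Its adjusted p stayed above the threshold under all 14 alternatives, between 0.0733 and 0.574 in limma.

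HOXB4, known for expanding blood stem cells when raised, lies nearer the head end of the cluster. It read 5.70, 5.86 and 5.75 in control and 5.32, 5.52 and 5.51 in the arrays labelled miR-196b (log2 signal). The groups did not overlap, with a gap of 0.18. The means differed by -0.32 (95% interval -0.52 to -0.11), and limma gave an adjusted p = 0.369. HOXB6, the next gene to HOXB7 on its head side, read 8.64, 8.83 and 8.69 in control and 8.59, 8.53 and 8.50 in the labelled arrays. Here the groups were separated by only 0.05, and the 95% interval of the log2 change of -0.18 ran from -0.37 to 0.0096 (limma adjusted p = 0.510).

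HOXB9, the next gene to HOXB8 on its tail side, read 9.01, 9.02 and 9.15 in control. Its values in the arrays labelled miR-196b were 8.70, 8.74 and 9.06 (log2 signal). Replicates 1 and 2 of the labelled arrays lay below every control, while replicate 3 lay within the control range. The means differed by -0.23 (95% interval -0.49 to 0.03), and limma gave an adjusted p = 0.545. HOXB2, a hindbrain gene, read 5.46, 5.39 and 4.75 in control and 5.16, 4.94 and 4.81 in the labelled arrays. Control replicate 3 lay below all 3 labelled arrays and the other 2 controls lay above them. The log2 change of -0.23 had the widest 95% interval among the 10 genes, from -0.69 to 0.23 (limma adjusted p = 0.721), and it depended on single arrays: -0.45 without control replicate 3, -0.10 without control replicate 1, -0.13 without control replicate 2 and -0.15 without labelled replicate 3.

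The remaining 4 genes overlapped between the groups and had 95% intervals that included 0. HOXB5 read 7.70, 8.01 and 8.34 in control and 7.99, 7.87 and 8.20 in the labelled arrays (log2 signal), so the controls alone spanned 0.64. The means differed by 0.0026 (95% interval -0.39 to 0.40), which does not exclude a change of the size seen for HOXB4. HOXB3 read 6.17 to 6.44 in control and 6.26 to 6.48 in the labelled arrays, a log2 change of 0.06 (-0.17 to 0.29). This interval lay above the whole interval of HOXB7. HOXB13, a tail-end gene expressed in prostate and distal colon, read 5.82, 5.41 and 5.97 in control and 5.85, 5.80 and 6.06 in the labelled arrays, a log2 change of 0.17 (-0.19 to 0.53). This value was 0.0093 without control replicate 2, 0.09 without labelled replicate 3 and 0.29 without control replicate 3. HOXB1, a hindbrain gene, read between 3.74 and 4.01 over all 6 arrays, with overlapping groups and a log2 change of -0.10 (-0.34 to 0.14). With single arrays left out this ran from -0.19 (labelled replicate 3) to -0.05 (labelled replicate 2). HOXB1 alone of the 10 lay in the dimmest 40% of named probe sets, so 9 passed that filter.

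**Figure D2:**
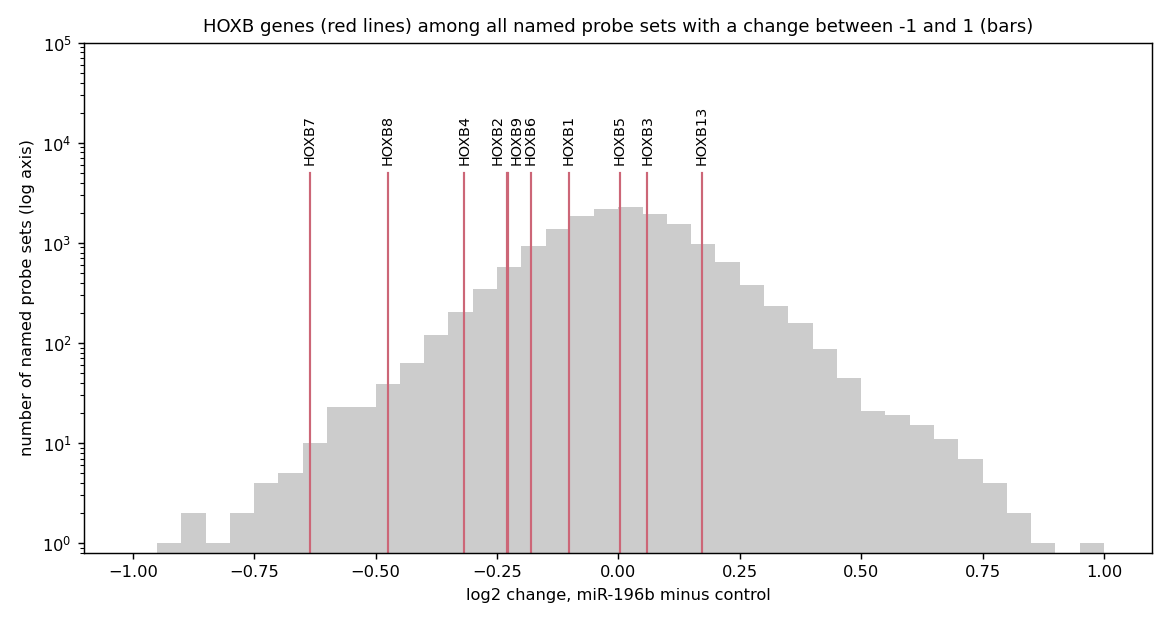
Log2 change of the 10 HOXB genes (red lines) over the counts of all named probe sets with a change between -1 and 1 (grey bars, log axis). HOXB7 at -0.64 and HOXB8 at -0.47 lie in the thin lower tail, while HOXB1, HOXB3 and HOXB5 lie near the middle.

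Whether HOXB7 changed more than its neighbours was read within arrays, as the difference between HOXB7 and each other gene on the same array. HOXB7 minus the mean of the other 9 HOXB genes was 1.49, 1.30 and 1.43 in control and 0.88, 1.04 and 0.82 in the arrays labelled miR-196b (log2). It moved by -0.49, so HOXB7 fell by more than the mean of the other 9, and no test was made of this difference. Against single genes the difference moved by -0.81 for HOXB13, -0.69 for HOXB3, -0.64 for HOXB5, -0.53 for HOXB1, -0.46 for HOXB6, -0.41 for HOXB9 and -0.32 for HOXB4. The groups did not overlap in any of these 7 comparisons, and each had p = 0.1 in an exact two-sided permutation test, the smallest p possible, or 0.138 adjusted over 11 such comparisons. All 7 use the same HOXB7 values, which were separated already, so they are not independent of each other. Against HOXB2 the difference moved by -0.41 with overlapping groups (exact permutation p = 0.2, adjusted 0.220). Against HOXB8 it moved by -0.16, also with overlapping groups (exact permutation p = 0.4, adjusted 0.4). The design could not reach a p under 0.05 here. HOXB7 and HOXB8 are next to each other, and their changes were not told apart.

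Other transcripts of the locus were set beside the HOXB genes in their order on the chromosome. HOXB-AS3, an antisense long noncoding RNA that overlaps HOXB5 and HOXB6 in the RefSeq annotation, read 5.79, 5.45 and 5.49 in control and 5.17, 5.41 and 5.25 in the arrays labelled miR-196b (log2 signal). The groups did not overlap, and the log2 change was -0.30 (95% interval -0.57 to -0.03, limma adjusted p = 0.474). Probe positions were not used here, so signal shared with HOXB5 or HOXB6 was not tested. The MIR196A1 precursor printed above read 4.97, 4.78 and 5.404 in control and 4.60, 4.86 and 4.88 in the labelled arrays, with overlap and a log2 change of -0.27 (-0.66 to 0.12). PRAC1, which lies beside HOXB13, had a log2 change of 0.12 (-0.28 to 0.52).

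The median log2 change of the 8 measured flanking genes was 0.0098, with 6 above 0 and 2 below. None passed in limma, where 0.0605% of all named genes passed. SNX11 alone had an unadjusted p under 0.05, and 1 of 8 is near the 9.86% of all named genes. Beyond HOXB1 lie NFE2L1, a transcription factor (0.0023), CBX1, a heterochromatin protein (0.01), SNX11, a sorting nexin (0.16, with separated groups), and SKAP1, an adaptor of T cell signalling (-0.15). Beyond HOXB13 lie CALCOCO2, an autophagy receptor (0.13), UBE2Z, a ubiquitin-conjugating enzyme (0.0060), GIP, a gut hormone gene (0.40, with overlapping groups), and IGF2BP1, an RNA-binding protein (-0.03). No flanking gene was lower in all labelled arrays than in all controls, against 7.24% of all named genes. With only 8 genes measured, this does not set the flanking genes apart from all named genes. The lowest log2 changes of the locus stood at HOXB7 and HOXB8, with smaller differences on either side of them.

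**Figure D3:**
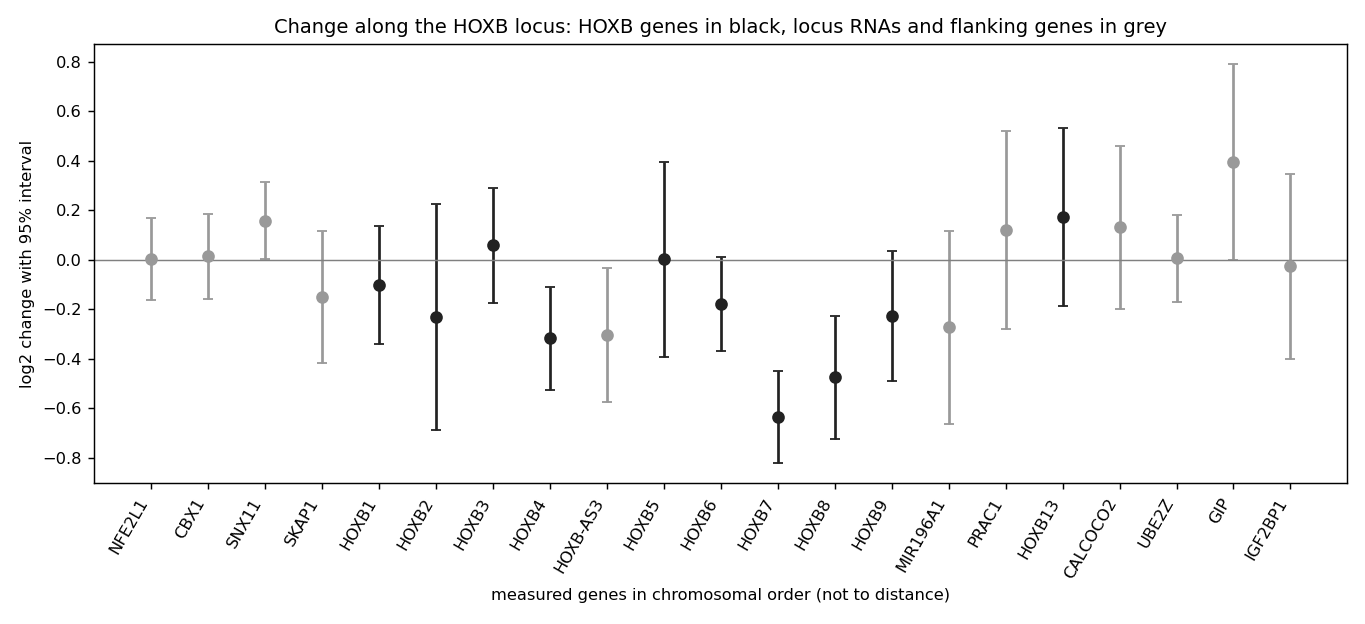
Log2 change with its 95% interval from limma for the measured genes of the HOXB locus in chromosomal order, not to distance, with HOXB genes in black and other transcripts in grey. HOXB7 (-0.64) and HOXB8 (-0.47) are lowest, HOXB4 and HOXB-AS3 also lie below 0 with their intervals, and the flanking genes lie at -0.15 or above.

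Genes of the other HOX clusters, which also encode homeodomain factors, were counted next. Of the 7 measured HOXC genes 3 were lower and 4 higher (median log2 change 0.08), and none had separated groups. Of the 9 measured HOXD genes 7 were lower and 2 higher (median -0.16), and 4 were separated and lower (HOXD1, HOXD12, HOXD10 and HOXD11), against 7.24% of all named genes. Of the HOXA cluster, HOXA2 alone had a named probe set here (0.17, in the dimmest 40%), so the other HOXA genes were not read. None of these 17 genes passed in limma (0.0605% of all named genes passed). At an unadjusted p under 0.05 were HOXD1, HOXD12 and HOXD8, all lower, against 9.86% of all named genes in either direction, and HOXD1 and HOXD12 lie in the dimmest 40% of named probe sets. Lower values with separated groups were thus also found in HOXD, and a difference between the clusters was not tested.

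HOXB8 has a paralogue, a gene of the same number, in the HOXC and HOXD clusters. HOXC8 read 5.60, 5.75 and 5.87 in control and 5.87, 6.05 and 5.53 in the arrays labelled miR-196b, a log2 change of 0.08 (95% interval -0.26 to 0.41). HOXD8 read 5.53, 5.48 and 5.25 in control and 5.16, 5.29 and 5.10 in the labelled arrays, a log2 change of -0.24 (-0.47 to -0.00049). The groups of both paralogues overlapped. Within arrays, HOXB8 minus HOXC8 moved by -0.55 with overlapping groups (exact permutation p = 0.2, adjusted 0.220), and HOXB8 minus HOXD8 moved by -0.24 with separated groups (exact permutation p = 0.1, adjusted 0.138). These 2 comparisons were added with the values known. Other HOXC values were -0.32 for HOXC12, 0.37 for HOXC11, 0.10 for HOXC9 and -0.18 for HOXC10, and other HOXD values were -0.29 for HOXD1, -0.28 for HOXD12 and -0.36 for HOXD10. HOXA7, the paralogue of HOXB7, was not analysed here. Probe sequences were not used, so signal shared between paralogues was not tested.

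Genes that act with or upstream of HOX factors were read next. HOX proteins bind DNA together with PBX, MEIS and PKNOX proteins, and of 7 measured genes of these families 4 were higher and 3 lower (median log2 change 0.03). MEIS1 had -0.20, with separated groups, PBX3 0.18, MEIS2 -0.09 and PBX4 0.16. Of the CDX factors, which switch on HOX genes in the gut, CDX2 had -0.26 with separated groups, CDX4 0.23 and CDX1 -0.0087. CDX2 read 6.04, 6.01 and 6.18 in control and 5.84, 5.96 and 5.66 in the arrays labelled miR-196b (log2 signal). None of these 10 genes passed in limma (smallest adjusted p = 0.481), where 0.0605% of all named genes passed. CDX2 alone had an unadjusted p under 0.05, and 1 of 10 is near the 9.86% of all named genes. Groups were separated and lower for 1 of the 7 PBX, MEIS and PKNOX genes (MEIS1) and 1 of the 3 CDX genes (CDX2). Over all named genes this share was 7.24%. MEIS1 and CDX4 lie in the dimmest 40% of named probe sets.

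Chromatin factors that keep HOX genes on or off were also counted. Of 9 measured activating factors 6 were higher and 3 lower (median 0.05), with PSIP1, a chromatin reader that tethers the MLL complex, at 0.10, the acetyltransferase KAT7 at 0.08, the demethylase KDM6A at 0.09 and DPY30, a core subunit of that complex, at -0.12. In this list PSIP1 and KAT7 were separated and higher (2 of 9) and DPY30 separated and lower (1 of 9), against 10.3% and 7.24% of all named genes. Of 22 measured Polycomb genes, whose products silence HOX clusters, 14 were higher and 8 lower (median 0.03), and 3 were separated and higher (PHC2, MTF2 and SUZ12), against 10.3% of all named genes. PHC2, a subunit of Polycomb repressive complex 1, read 7.66, 7.61 and 7.38 in control and 7.93, 7.89 and 8.21 in the labelled arrays, a log2 change of 0.46 (95% interval 0.18 to 0.74, limma adjusted p = 0.360). RYBP had 0.13, MTF2 0.10 and SUZ12 0.09. None of these chromatin genes passed, and PHC2 alone had an unadjusted p under 0.05, against 9.86% of all named genes.

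Genes reported to respond to HOXB7 were read as a further list. Among 5 measured genes 2 were higher and 3 lower (median -0.01). VEGFA, the endothelial growth factor, read 6.93, 7.04 and 7.05 in control and 7.14, 7.14 and 7.31 in the labelled arrays, a log2 change of 0.19 with separated groups (limma adjusted p = 0.504). CXCL8 had -0.25, ANGPT2 -0.12, FGF2 0.03 and EGFR -0.01, all with overlapping groups. The 4 measured protein partners reported for HOXB7 had log2 changes of 0.05 (CREBBP), 0.03 (XRCC6), 0.02 (XRCC5) and 0.01 (PARP1), with overlapping groups. None of these 9 genes passed in limma, where 0.0605% of all named genes passed. VEGFA alone had an unadjusted p under 0.05, and 1 of 9 is near the 9.86% of all named genes. It alone was also separated and higher, against 10.3% of all named genes. HOXB7 was lower in the arrays labelled miR-196b while these genes went both ways or lay near 0.

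The named genes whose values followed HOXB7 most closely over the 6 arrays were PFDN5, a prefoldin chaperone subunit (Pearson r = 0.994), the microRNA gene MIR149 (0.994), PNLIP, pancreatic lipase (0.991), CPA4, a carboxypeptidase (0.991), and ZNF750, a zinc finger factor of epidermal differentiation (0.989). All 5 were lower in the labelled arrays, by log2 changes of -0.26, -0.75, -0.17, -1.38 and -0.57. The 6 arrays share the group difference, so these correlations describe mostly that.

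The call on HOXB7 was followed across the alternatives. Its log2 change lay between -0.68 and -0.60 under all 14 of them, while its adjusted p in limma ran from 0.00146 to 0.486. HOXB8, HOXB4 and HOXB6 kept their sign and passed under none.

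**Figure D4:**
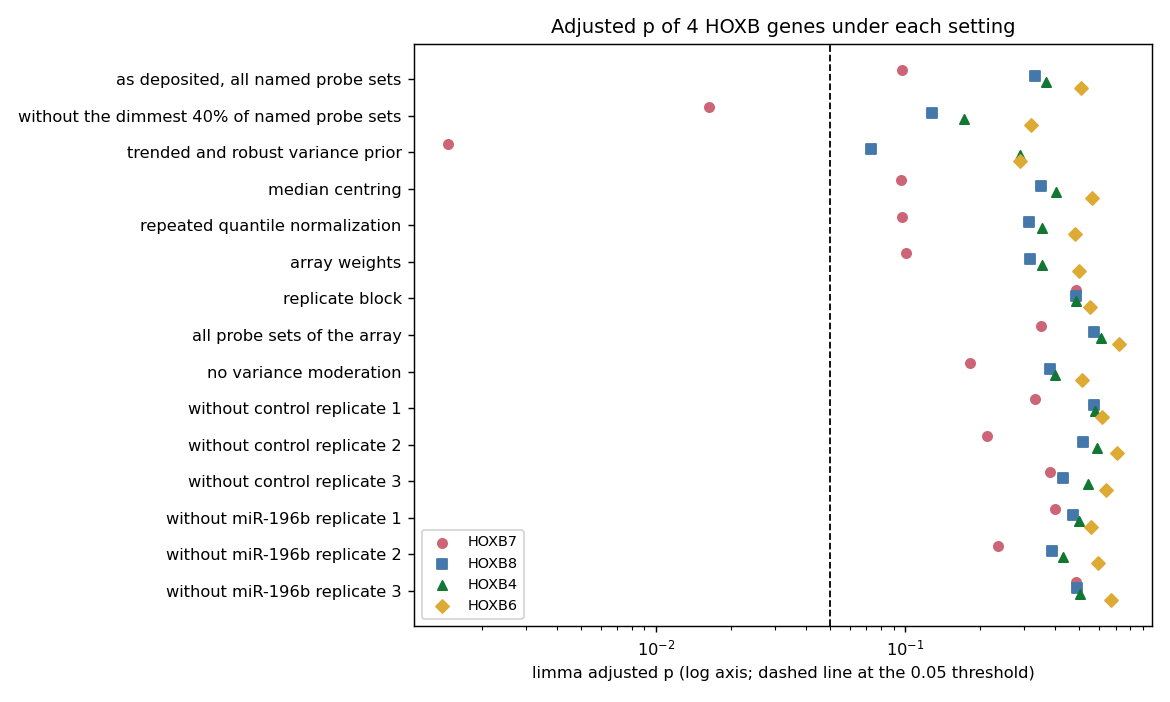
Limma adjusted p (log axis) of HOXB7, HOXB8, HOXB4 and HOXB6 as deposited and under each of the 14 alternatives, with the threshold of 0.05 as a dashed line. HOXB7 passes under 2 alternatives (0.0164 and 0.00146), and the other 3 genes pass under none.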

How the data were processed

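The authors deposited log2 signals, 1 per probe set and array, and no array files were used here. Per the submitters' processing notes the tools were RMA and Partek 6.6. Their roles and settings are not given there, and log base 2 was taken from RMA. RMA equalises the distributions of the arrays, so a shift of all genes cannot be seen. A build is not given in the sources used here, so RefSeq (GRCh38.p14) served for symbols, gene order and microRNA sequences.

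Of 53617 probe sets, 16098 had 1 gene symbol (14884 genes), 0 had several and 37519 had none here. Identifiers of all 16098 were found in RefSeq. They were fitted in limma 3.58.1 (R 4.3.3) with lmFit and eBayes, with no filter, trend or robust fit, and p-values were adjusted over all of them by Benjamini-Hochberg. A gene of a list was read at its brightest probe set. It is called measured where it had a named probe set. Other listed genes may have probe sets among those without a symbol here. Members and lists were chosen with earlier results of these data known. Named genes were all HOXB genes, the locus transcripts, the paralogues of HOXB7 and HOXB8, up to 4 members of each list with the smallest p and the 5 genes most like HOXB7. The fit was tested on simulated data. Same-numbered arrays were checked for pairing: their deviations correlated at 0.0085 to 0.037, so the numbers were not treated as pairs. No scan date was used, so no batch was tested.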

Additional observations from a re-analysis of the deposited data

How the results depend on the processing

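The number of named probe sets called was 9 as deposited, 22 without the dimmest 40%, 91 with a trended, robust prior, 5 without variance moderation, 1 with the replicate block and 2 to 3 with any array left out. The cause was not tested. HOXB genes called went from 0 to 1, HOXB7 (log2 change -0.64), without the dimmest probe sets and with the trended, robust prior. That prior also called 1 other listed gene, the epithelial marker KRT18 (-0.22), and raised the HOXB genes at an unadjusted p under 0.05 from 3 to 5. The share of all named probe sets at that unadjusted p was not counted under this prior, so the 5 have no background here. With any array left out, HOXB7 had -0.68 to -0.60 (limma adjusted p = 0.214 to 0.486). HOXB5 reversed with a repeated quantile normalization (-0.015) and with array weights (-0.055), and with an array left out it ran from -0.16 to 0.16. HOXB3 ran from -0.0062 to 0.13 with an array left out. The numbers of HOXB genes lower (7 to 9) and separated (4 to 6) stayed within 1.5 times of 7 and 4, and the median HOXB change stayed between -0.23 and -0.15. The separated counts of 5 (without control replicate 3) and 6 (without labelled replicate 3) came from fewer arrays, where groups separate more easily. No share over all named probe sets was taken there. With the replicate block, where replicate numbers are only shared labels, HOXB7 had an adjusted p of 0.485 in limma, and not every array correlated best with its own number. Averaging probe sets per gene gives the same values here, since each HOXB gene has 1. The number of arrays limits the precision.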
